A study of Mus musculus with 22 samples.

Results

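The splicing factors and heterogeneous nuclear ribonucleoproteins (hnRNPs) were the genes whose symbol began with Srsf and a digit, Hnrnp, Snrp, Sf3a or Sf3b with a digit, or U2af, and this rule took 52 of the 23453 symbols in the table of read counts. By their roles they fell into 6 groups, with 11 SR proteins, 18 hnRNP proteins, 8 proteins of the Sm core, 4 proteins particular to the U1 and U2 snRNPs, 8 subunits of SF3a and SF3b, and 3 members of the U2AF family. The names, not the measured values, chose them, so relatives filed under other symbols were not among them (Snrnp70 of the U1 snRNP, Hnrpdl and Hnrpll). The RNA came from 22 single astrocytes cultured from the cerebral cortex of newborn C57BL/6 mice, shaken and treated with cytosine arabinoside to remove other cells, and each cell was drawn up after its calcium signal to ethanol (EtOH) had been imaged with Fluo-4 and its response to ATP recorded. The study asked whether astrocytes that answer EtOH with different calcium signals also differ in their transcripts, and it sorted the cells into 6 S-type cells with a sustained signal, 6 T-type cells with a transient signal, 5 M-type cells with a mixed signal and 5 NR cells with no response to EtOH. All 22 cells, NR included, had received EtOH, so NR was the comparison group and not an untreated control. The study also describes different collection times after EtOH, and the collection time of each cell is not given here. Neither the labels nor the study's text name the pup or culture of a cell, so each type was treated as 1 sample. No test between types was therefore run, and the spread given is that between cells.

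Splicing removes introns from the new transcript in the nucleus. The U1 snRNP binds the start of an intron, the U2AF heterodimer binds the pyrimidine tract and the AG at its end, and the U2 snRNP then takes the branch point, where its SF3b part holds the branch-point adenosine. Each spliceosomal snRNP except U6 carries a ring of Sm proteins around its RNA. SR proteins bind exonic enhancers and mostly favour the use of nearby sites, and hnRNPs coat the transcript and often oppose it, so the balance of both families is known to set which exons a cell keeps. Several of these genes control their own message through poison exons, which place a stop codon early and mark the transcript for decay.

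Total counts per cell lay between 2937786 and 22131076 reads, with 2 T-type libraries apart from the rest. T-type cell 2 had reads on 6319 genes and a size factor of 0.276, and T-type cell 3 had the smallest total, reads on 7442 genes and a size factor of 0.183. The size factors of the other cells lay between 0.548 and 2.31. All 15 astrocyte markers had reads in every type, and their summed share of a cell's reads had a median of 1.24% to 1.74% in a type. This share leans on Vim, which had 3276534 reads, against 359681 for Slc1a3, 196847 for Aqp4 and 49570 for Gfap. In T-type versus NR 6 of the 15 were at least 2-fold lower and 3 at least 2-fold higher (32.8% and 28.4% of all genes). Whether the cells kept their identity was not tested. Of 13 microglia markers, 4 had reads in S-type, 11 in M-type, 12 in T-type and 12 in NR. P2ry12 was at 0 in S-type, M-type and NR, while Laptm5 had 3324 reads in 11 cells and Cx3cr1 845 reads in 7 cells. The summed share of the 13 markers in a cell's reads reached 3.08e-05% (S-type), 0.00580% (T-type) and 0.000150% (M-type), and lay between 7.92e-05% and 0.0118% in NR. Oligodendrocyte lineage markers reached 0.333% (T-type cell 3), neuron markers 0.208% (S-type cell 2), endothelial markers 0.0200% (T-type cell 5) and markers of mural cells and fibroblasts 0.745% (S-type cell 5). In a type 7 to 8 of 11 oligodendrocyte lineage, 6 to 12 of 13 neuron, 4 to 5 of 8 endothelial and 5 to 8 of 10 mural and fibroblast markers had reads. Of these lists Sox10, Slc17a7, Cdh5, Cldn5 and Rgs5 were at 0 in all 22 cells. Cell cycle genes were highest in 3 cells, with 1.47% of the reads on G2/M genes in S-type cell 1, 0.828% on S phase genes in S-type cell 2 and 0.984% on S phase genes in T-type cell 5, against at most 0.0522% on S phase genes in an NR cell. The part of these markers in any difference below was not tested.

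Nearly the whole family was detected. Of the 52 genes 51 had a read, all 51 had one in at least 5 cells, and 34 had one in all 22 cells. Of all genes detected in 5 or more cells, 28.9% were read in every cell. Where the mean level over the cells reached 100 normalized counts, 33 of 45 splicing factors and hnRNPs were read in every cell, against 42.1% of all genes at that level. With each cell thinned to the smallest total 32 of the 52 were still read in all 22 cells. Single cells had reads on 38 (T-type cell 3) to 51 of the genes, and T-type cell 2 had reads on 42.

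The 5 rarest genes held 817 reads together. Snrpn, an Sm protein related to Snrpb and made from an imprinted gene in neurons, had 0 reads in all 22 cells, and so did Snurf, the frame that shares its transcript. A count of 0 over the cells of a type allows a level of at most 0.402, 0.622, 0.319 and 0.397 normalized counts in the order S-type, T-type, M-type, NR, counting error only. Hnrnpa1, which encodes one of the most abundant hnRNPs of mammalian cells, had only 57 reads in 6 cells, and 45 of them were in NR cell 3. Sf3a2 had 106 reads in 14 cells, Snrpa 316 reads in 20 cells and Hnrnpul1 338 reads in 11 cells.

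Since only uniquely aligned reads were counted, the sequence that the 2 lowest of these genes share with other genes is given here. Hnrnpa1 (chr15:103240432-103246692, + strand, GRCm38) shares 44.4% of the 75-base stretches of its longest coding transcript with 14 annotated genes elsewhere in the genome, mostly processed pseudogenes. The first 75 coding bases are printed because the processed pseudogene Gm10052 on chromosome 9 holds the same 75 bases, so a read inside them has 2 places to align.
Hnrnpa1: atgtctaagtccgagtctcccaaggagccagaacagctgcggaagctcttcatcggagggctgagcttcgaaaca
Of 14 consecutive 75-base blocks of the Hnrnpa1 coding sequence 11 were identical in Gm10052. The reads were paired, so a pair can span more than 1 such stretch, and how many pairs were lost was not tested. Snrpn (chr7:59982495-60140219, - strand) and its paralog Snrpb (chr2:130171414-130179403, - strand) are shown for contrast, with capitals at the 11 of the first 75 coding bases at which they differ.
Snrpb: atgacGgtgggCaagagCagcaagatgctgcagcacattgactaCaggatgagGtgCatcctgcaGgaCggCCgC
Snrpn: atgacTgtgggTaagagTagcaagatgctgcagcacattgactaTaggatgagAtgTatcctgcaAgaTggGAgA
These stretches were 85.3% identical. Of 9 consecutive 75-base blocks of the Snrpb coding sequence 0 were identical in the Snrpn coding sequence. Annotated genes that overlap Snrpn in position covered 22.2% of its stretches, among them Gm38393 (18.4%) and Snurf (6.59%). The part of this overlap in the counts of 0 for Snrpn and Snurf was not tested.

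Other genes of the family also share sequence or position, which leaves their counts uncertain. Hnrnpa3 shared 90.3% of its 75-base stretches with 39 genes elsewhere, U2af1 53.9%, Hnrnpf 47.0%, Sf3b4 43.2%, Hnrnpk 29.0%, Srsf3 25.2% and Snrpe 24.0%. Hnrnpa3 still had 33137 reads and Hnrnpf 40959, against 57 for Hnrnpa1, of whose stretches 55.6% were not shared. The part of shared sequence in the low count of Hnrnpa1 was not tested. Genes that overlap in position covered 97.2% of the stretches of U2af1l4, 66.6% of Snrpf, 63.8% of Srsf4, 32.9% of Srsf2 and 28.4% of Hnrnpm. Whether the counting used the strand is not given in the sources used here. Hnrnpa2b1, Hnrnpul1, Sf3b1 and Srsf12 shared 0% with any annotated transcript.

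Together the family took 2902171 reads, which was 0.818% of all reads. Hnrnpa2b1 alone held 17.8% of them and the first 5 genes 44.9%. In the S-type cells the share of a cell's reads had a lowest, median and highest value of 0.621%, 0.772% and 0.9497%, and in the T-type cells of 0.623%, 0.892% and 1.52%. In M-type cells 1 to 5 the share was 0.762%, 0.919%, 0.807%, 0.735% and 0.684%. In NR cells 1 to 5 it was 0.960%, 0.652%, 0.563%, 0.758% and 0.573%. The 4 ranges overlapped, T-type had the highest median and NR the lowest, and the highest T-type value was that of T-type cell 2, one of the 2 libraries that stood apart. The median of T-type was 0.851% without that cell. At this depth the counting error of reads was small (0.614% to 0.632% in T-type cell 3, the shallowest, exact binomial), and the spread between cells far exceeded it. The reads are amplified copies, so this interval leaves out the sampling of RNA molecules from a cell, which was not measured.

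The hnRNP proteins took the most reads and the U2AF family the fewest. In the order S-type, T-type, M-type, NR, the median share of the hnRNPs was 0.367%, 0.475%, 0.385% and 0.281%. For the SR proteins the medians were 0.232%, 0.165%, 0.242% and 0.204% in the same order, so that here T-type was lowest. SF3a and SF3b were nearly level, at 0.0849%, 0.0836%, 0.0840% and 0.0928%. The Sm core had medians of 0.0600%, 0.0550%, 0.0537% and 0.0485%, and the proteins of U1 and U2 0.0148%, 0.0282%, 0.0106% and 0.0153%. U2AF had 0.00724%, 0.00182%, 0.00318% and 0.00462%. Within T-type the hnRNP share ran from 0.302% to 1.43% and the SR share from 0.0286% to 0.309%, and both the highest hnRNP share and the lowest SR share belonged to T-type cell 2.

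**Figure D1:**
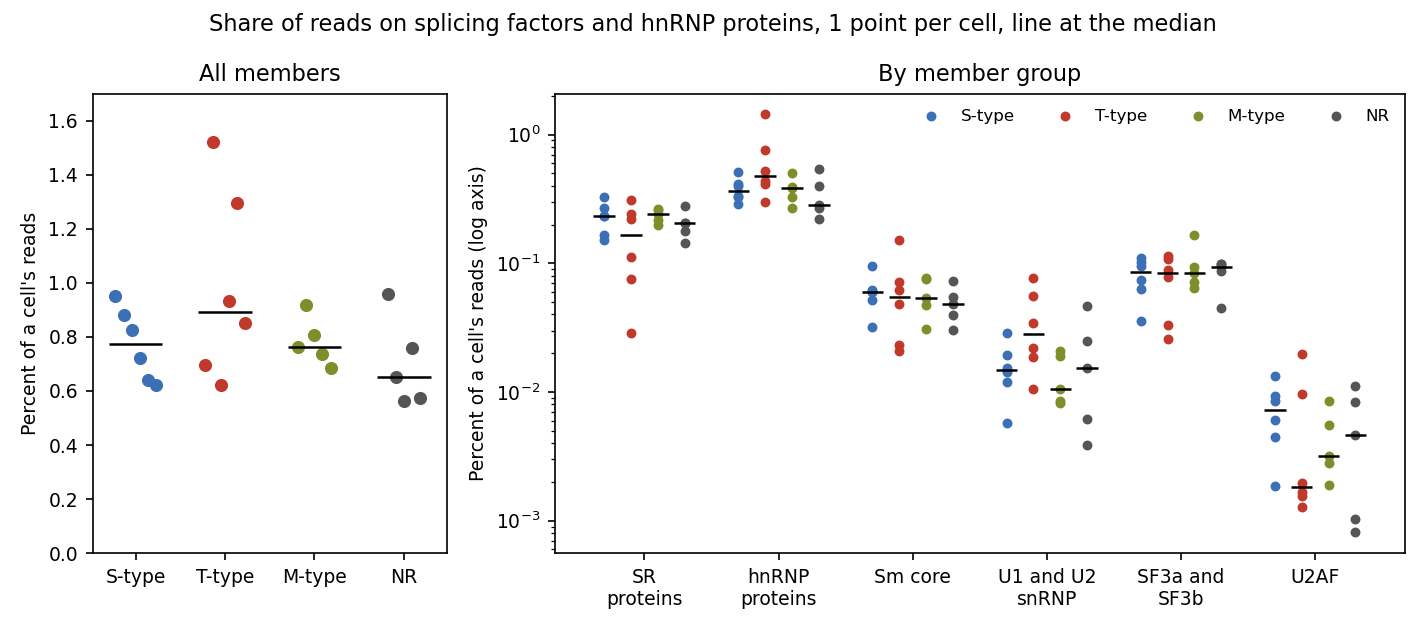
Percent of each cell's reads on all 52 genes (left) and on each of the 6 groups (right, log axis), with 1 point per cell, coloured by response type, and a line at the median of the type. The medians over the 52 genes run from 0.652% (NR) to 0.892% (T-type), the ranges of the types overlap, and T-type cell 2 is the highest point at 1.52%.

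To compare types, each count was divided by the cell's size factor, which gives a normalized count, and a gene's level in a type is the mean of its normalized counts over the cells. A log2 ratio compares 2 such levels, and a gene is called past 2-fold where the ratio is at least 1 or at most -1. Levels of different genes are compared only per kb of exon. On that scale Hnrnpa2b1 was highest over the 22 cells (5378 normalized counts per kb), followed by Hnrnpab (3246), Snrpe (1587), Hnrnpa0 (1313), Srsf2 (1239), Srsf3 (924) and Snrpd1 (913). The lowest with a read were Snrpa (3.53), Sf3a2 (1.34), Hnrnpul1 (1.31) and Hnrnpa1 (0.559). The most abundant genes thus came from the hnRNP, Sm and SR groups, while none of the SF3 or U2AF genes was among the first 7.

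**Figure D2:**
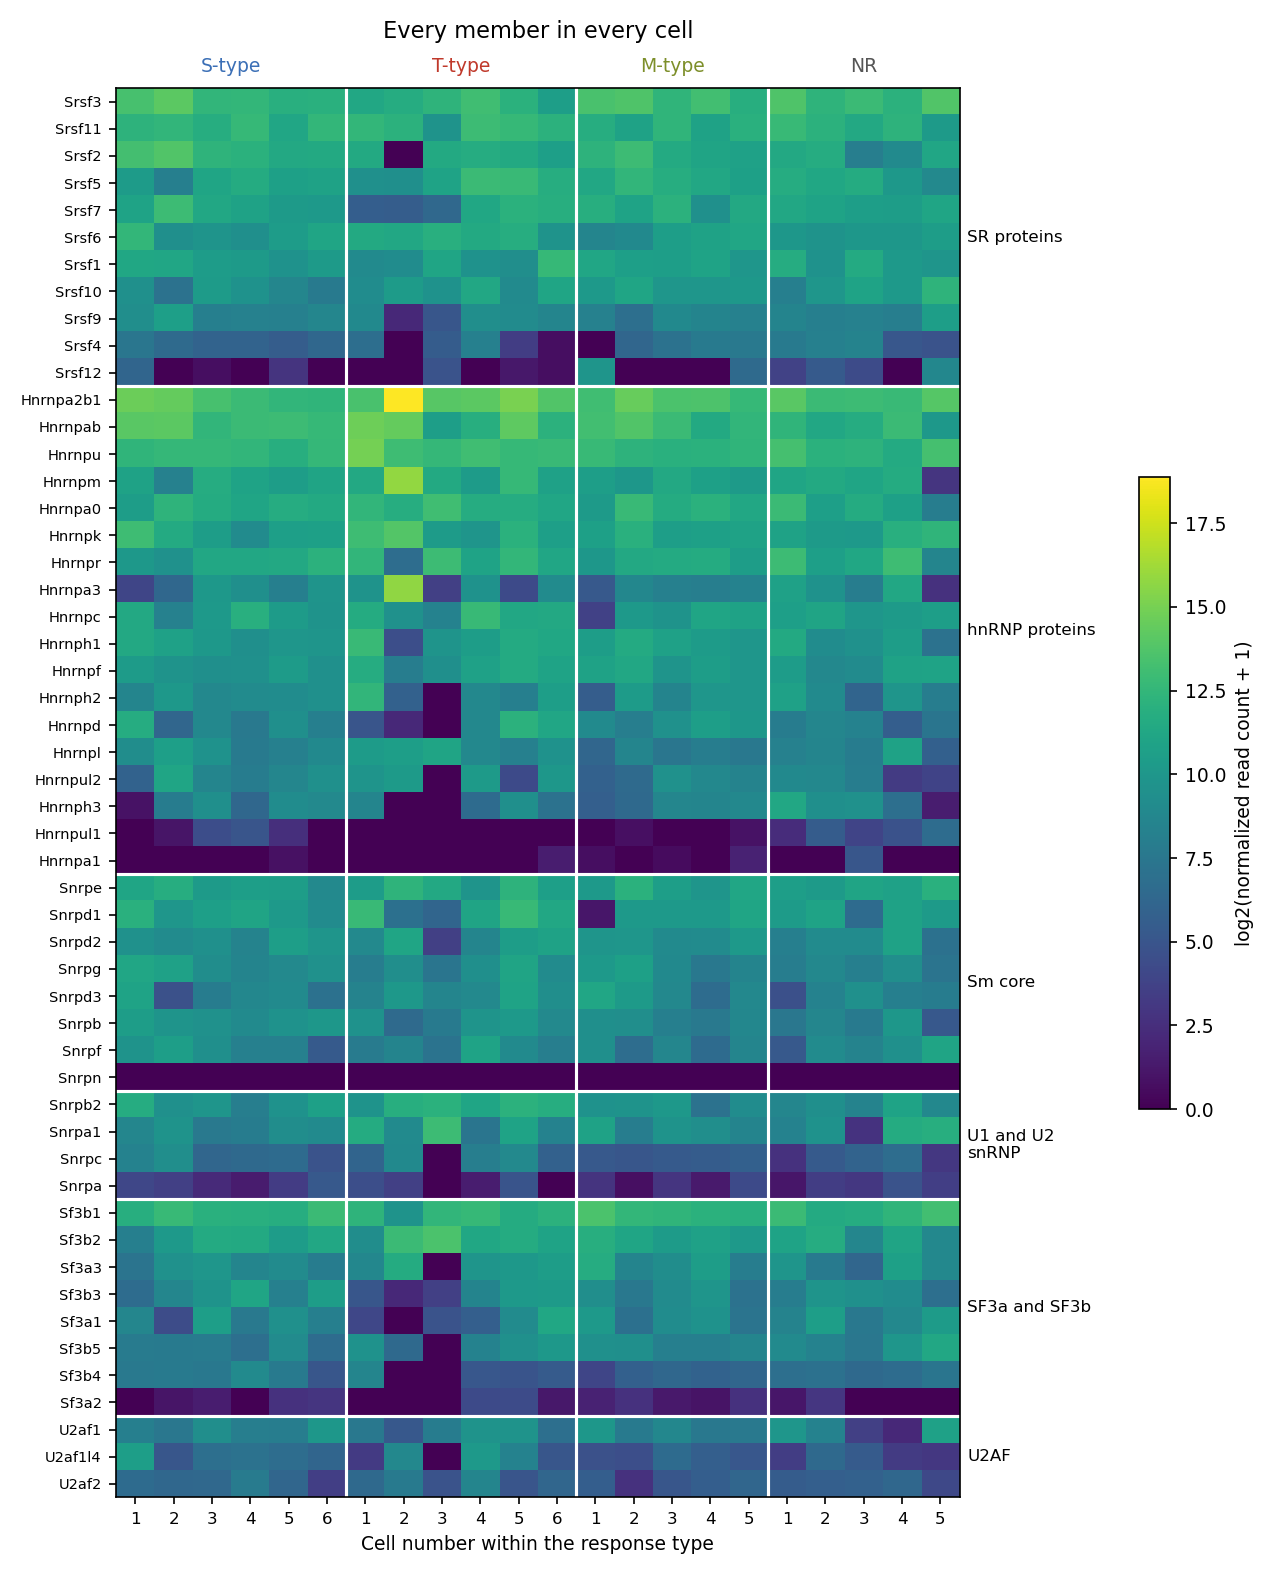
log2(normalized read count + 1) of all 52 genes (rows, by group and by mean level within a group) in the 22 cells (columns, by response type). Snrpn is dark in every cell with 0 reads, Hnrnpul1 is dark in all 6 T-type cells, and T-type cell 3 lacks reads for 14 genes.

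T-type cells were compared with S-type cells to contrast a transient with a sustained signal. The hnRNPs had mostly higher levels in T-type, as did 3 of the 4 U1 and U2 proteins, and the SR proteins did not. Of 50 genes with a ratio 13 were at least 2-fold higher in T-type, where 25.7% of all genes were, and 4 were at least 2-fold lower, where 32.5% of all genes were. The median log2 ratio was 0.51 for the family and -0.09 for all genes, and 32 of 50 ratios were positive. By group the median was 0.73 for the hnRNPs (15 of 17 positive), 0.70 for U1 and U2 (3 of 4), 0.50 for SF3a and SF3b (4 of 8), 0.42 for the Sm core (4 of 7), -0.04 for U2AF (1 of 3) and -0.19 for the SR proteins (5 of 11). Averaging log2(normalized count + 1) over the cells in place of the counts turned the family's median to -0.27, with -1.12 for all genes, so the direction of the family rests on the scale while its place above the median gene does not. SF3a and SF3b turned to -0.36 and the Sm core to -0.30 on that scale, while the hnRNPs stayed at 0.53 and U1 and U2 at 0.34. Mean CPM gave 0.08 for the family and -0.46 for all genes. The family was more abundant than the median gene (median level 1250.3 and 296 normalized counts among genes at 10 or more). No background of like level was used, so the part of abundance in the family's place above the median gene was not tested. In none of the 49 genes whose mean level reached 10 did the T-type and S-type cells separate completely, and of all genes at that level 0.135% lay wholly higher and 0.692% wholly lower in T-type.

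T-type cells were also compared with NR cells, whose calcium signal to EtOH stayed below the study's threshold for a response. Here 17 of 51 genes were at least 2-fold higher in T-type against 28.4% of all genes, and 6 were at least 2-fold lower against 32.8%. The median log2 ratio was 0.67 for the family and -0.07 for all genes, and 33 of 51 ratios were positive. It was 1.46 for U2AF (2 of 3 positive), 1.31 for U1 and U2 (3 of 4), 0.89 for the hnRNPs (14 of 18), 0.72 for the Sm core (6 of 7), -0.17 for the SR proteins (5 of 11) and -0.27 for SF3a and SF3b (3 of 8). With the mean of log2(normalized count + 1) the family's median was 0.27 and that of all genes -0.97, and with mean CPM 0.18 and -0.46. No group's median turned with mean log2 values in this comparison. Of 49 genes 1 had all T-type cells below all NR cells (Hnrnpul1), where 0.836% of all genes did, and 0 had them all above, where 0.203% did. Hnrnpul1 met the mean level of 10 only through NR, with levels of 38.0 (NR), 9.63 (S-type), 0.313 (M-type) and 0 (T-type). Since its NR cells also let it pass the filter, its separation is given as a description only.

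S-type and M-type cells differed from NR cells by less in the family's median, and both comparisons use the same 5 NR cells as the one before. In S-type 8 of 51 genes were at least 2-fold higher than in NR against 25.1% of all genes, and 9 were at least 2-fold lower against 22.5%. The median log2 ratio was 0.11 for the family and 0.03 for all genes, and it was -0.18 without S-type cells 1 and 2, which had the highest G2/M and S phase shares of their type. In M-type 5 of 51 genes were at least 2-fold higher than in NR against 19.8% of all genes, and 8 were at least 2-fold lower against 28.1%. The median log2 ratio of M-type versus NR was -0.10 for the family and -0.20 for all genes, and with mean log2 values it was 0.018 and -0.038. The cells of S-type and NR separated in 0 of 49 genes in either direction, where 0.203% of all genes were wholly higher and 0.22% wholly lower. The M-type cells lay wholly below the NR cells in 2 genes (Hnrnpul1 and Sf3b4), where 0.346% of all genes did, and wholly above them in 0, where 0.287% did. For Hnrnpul1 the limit of the level filter given above holds here too.

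**Figure D3:**
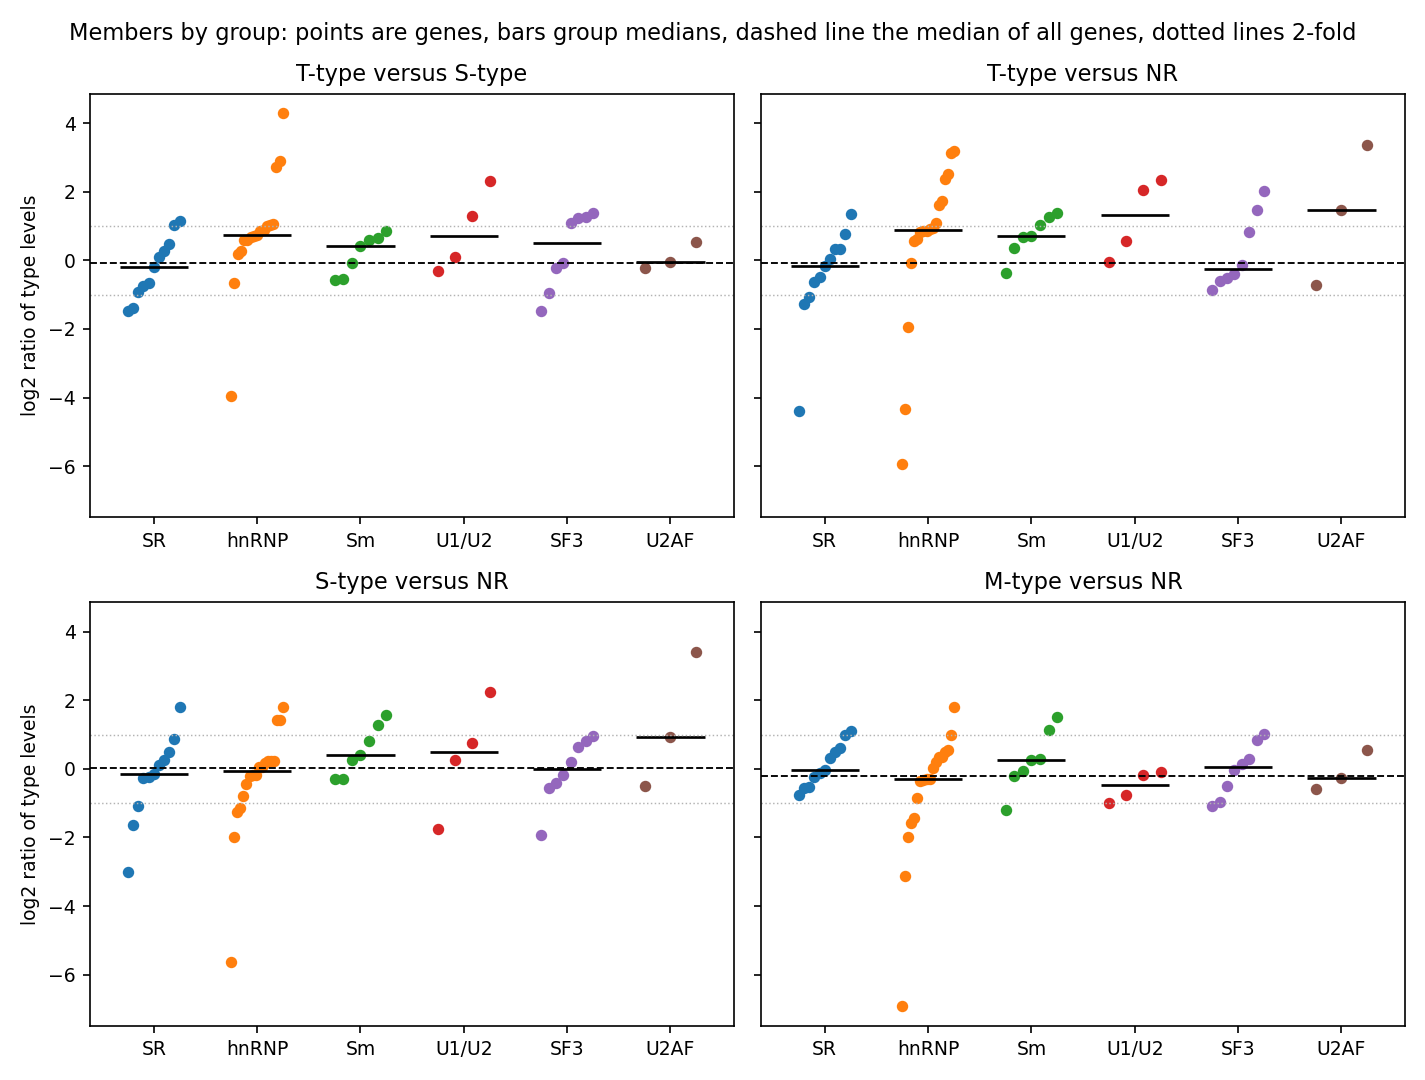
log2 ratio of type levels for each gene (points) by group, in the 4 comparisons, with a bar at the group's median, a dashed line at the median of all genes compared and dotted lines at 2-fold. In T-type versus S-type and versus NR the hnRNP medians lie at 0.73 and 0.89 above the dashed lines at -0.09 and -0.07, and the SR medians lie at -0.19 and -0.17.

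Few of these ratios held when single cells were left out or levels were formed another way. In T-type versus S-type 2 of the 13 genes at least 2-fold higher stayed so with each cell left out in turn (Snrpa1 and Snrpb2), and 1 of them also under the 5 other ways of scaling and averaging tried (Snrpa1). Of the 4 lower genes Hnrnpul1 and Sf3b4 passed both. In T-type versus NR, Snrpb2, Snrpc and U2af1l4 passed both of the 17 higher genes, and Hnrnpul1 and Srsf12 of the 6 lower ones. In S-type versus NR 5 of 8 higher genes passed both (Hnrnpab, Snrpc, Snrpg, Srsf2 and U2af1l4), as did Hnrnpul1 and Sf3b5 of 9 lower ones. In M-type versus NR, Hnrnpd of 5 higher genes and Hnrnpul1 of 8 lower genes passed. Hnrnpul1 was the gene that passed in all 4 comparisons. Its level was highest in NR, as given above, and the comparisons with NR share those cells. The share of all genes that would pass both was not computed. Whether the family kept more or fewer of its ratios than other genes was therefore not tested.

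Among the SR proteins Srsf3, Srsf11 and Srsf2 had the most reads. Srsf3 (chr17:29032628-29043373), the smallest SR protein and a factor in mRNA export as well as splicing, had 3959, 5744 and 18032 normalized counts as lowest, median and highest value in S-type and 1579, 3786 and 8646 in T-type. Counts were 11602, 13253, 5256, 9303 and 3639 in the M-type cells and 13243, 4999, 7707, 4605 and 13616 in the NR cells. All 22 cells thus held Srsf3 within about an order of magnitude, and the ranges of the 4 types overlapped. Its log2 ratio of T-type versus NR was -1.07 (-0.96 without T-type cell 1, -0.90 without T-type cell 6, -0.87 without NR cell 1 and -0.86 without NR cell 5).

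Srsf2 (chr11:116849901-116853094, - strand), also known as SC35 and used as a marker of nuclear speckles, had its highest level in S-type. Its S-type cells had 2667, 4726 and 13721 normalized counts as lowest, median and highest value, and its T-type cells 0, 2892 and 3342, with 0 in T-type cell 2. M-type cells 1 to 5 gave 4671, 7907, 3079.7, 2126 and 1810.2, and NR cells 1 to 5 gave 2712, 3261, 273, 522 and 2344. Apart from S-type cells 5 and 6, every S-type cell exceeded every T-type and NR cell, and the 2 highest values of all were in S-type cells 1 and 2, the cells with the highest G2/M and S phase shares of their type. T-type cell 5, with the highest S phase share of all, had 2908.5. The log2 ratio of S-type versus NR was 1.81 (1.43 to 2.13 over cells left out in turn), that of M-type versus NR 1.105 (0.68 without M-type cell 2, 0.83 without NR cell 3 and 0.87 without NR cell 4), and that of T-type versus S-type -1.49 (-1.65 to -1.11 over cells left out in turn).

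Srsf11, an SR-related protein that works with U2AF near the end of the intron, was the most even member of the family. Its normalized counts ran through 2358, 5169 and 6603 in S-type and 818, 5246 and 8092 in T-type. They were 3553, 1870.3, 5394, 1859.8 and 4132 in the M-type cells and 6638, 4604, 2742, 4774 and 1252 in the NR cells. The SD over the mean across the 22 cells was 0.445, and no ratio between its type levels passed 2-fold.

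Srsf12, a rare SR protein known to oppose other SR proteins, was the most uneven of the group. It had 0, 0.305 and 69.2 normalized counts in S-type and 0, 0.320 and 27.3 in T-type. Among the M-type cells the values were 907, 0, 0, 0 and 91.6, and among the NR cells 12.1, 39.1, 19.4, 0 and 436. Reads were absent in at least 1 cell of each type, so the groups overlapped at 0. The log2 ratio of T-type versus NR was -4.38 (counting interval -5.597 to -3.39, and -8.03 without T-type cell 3 and -1.86 without NR cell 5), and that of S-type versus NR -2.997 (-6.20 without S-type cell 1 and -0.48 without NR cell 5). In T-type versus S-type the ratio was -1.38 (-5.03 without T-type cell 3 and 1.82 without S-type cell 1), so that single cells turned it.

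The remaining 7 SR proteins (Srsf1, Srsf4, Srsf5, Srsf6, Srsf7, Srsf9 and Srsf10) had log2 ratios of T-type versus NR between -1.26 (Srsf4, -2.48 to -0.90 over cells left out in turn) and 1.35 (Srsf6, 1.21 to 1.53). Over the whole group 1 of 11 SR proteins was at least 2-fold higher and 3 were at least 2-fold lower in T-type versus NR, against 28.4% and 32.8% of all genes, and the same counts held for S-type versus NR, against 25.1% and 22.5%.

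The hnRNPs contained the largest single values of the family. Hnrnpa2b1 (chr6:51460932-51469894, - strand), a binder of UAG-rich motifs that also carries messages along the processes of neural cells, had 5160.5, 9140.2 and 26365 normalized counts in S-type and 11135, 17192 and 488149 in T-type. The M-type cells had 8885, 23735, 11719, 12665 and 6536, and the NR cells 17110.2, 7734, 7870.0, 7140.5 and 15274. The value of 488149 was that of T-type cell 2, where the gene took 1.07% of all reads, and the other 21 cells lay between 5160.5 and 35241. This cell held 83.8% of the summed T-type level, and the log2 ratio was 2.91 in T-type versus S-type (0.54 without T-type cell 2) and 3.14 in T-type versus NR (0.78 without T-type cell 2).

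The same cell led Hnrnpa3 and Hnrnpm. Hnrnpa3, a close relative of Hnrnpa2b1, had 14.2, 472 and 1063 normalized counts in S-type and 10.9, 684 and 56187 in T-type. Counts were 36.9, 422, 303, 274 and 335 in the M-type cells and 1823, 788, 254, 2529 and 5.56 in the NR cells. T-type cell 2 held 96.2% of the summed T-type level, and the log2 ratio turned without it from 4.30 to -0.14 in T-type versus S-type and from 3.17 to -1.27 in T-type versus NR. In M-type versus NR the log2 ratio was -1.98 (-1.39 without NR cell 4). Hnrnpm, which is known for a role in alternative exons of epithelial and mesenchymal cells, had 308, 1916 and 3296 normalized counts in S-type and 1299, 2739 and 57169.9 in T-type. M-type cells 1 to 5 gave 1573, 1037, 2691, 1696 and 1248, and NR cells 1 to 5 gave 2179, 2856, 2174, 3221 and 6.49. T-type cell 2 was far above the other 21 cells in normalized counts. The log2 ratio was 2.71 in T-type versus S-type (0.70 without T-type cell 2) and 2.52 in T-type versus NR (0.51 without T-type cell 2). By share of reads Hnrnpm had 0.125% in T-type cell 2 and 0.0510% in T-type cell 5, the next cell. For Hnrnpa3 the shares were 0.123% in T-type cell 2 and 0.0224% in NR cell 4, the next cell. Of the 10 genes of the family without a read in T-type cell 2, 3 were SR proteins (Srsf2, Srsf4 and Srsf12) and 3 were hnRNPs (Hnrnpa1, Hnrnph3 and Hnrnpul1).

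Hnrnpab (chr11:51600100-51606847, - strand), a relative of Hnrnpd that acts in transcription, splicing and mRNA transport, was lowest in NR. It had 5596, 7626 and 18406 normalized counts in S-type and 1582, 11682 and 26459 in T-type. Among the M-type cells the values were 9264, 13732, 7415, 2816 and 5465, and among the NR cells 5258, 2528, 3309, 7407 and 1059. All but 1 of the NR cells lay below every S-type cell, and the T-type range overlapped that of NR. The log2 ratio of S-type versus NR was 1.43 (1.19 to 1.80 over cells left out in turn), that of T-type versus NR 1.72 (1.37 to 2.08 over cells left out in turn), and that of M-type versus NR 0.98. The S-type cells with the highest values were cells 1 and 2, which led the cell cycle shares of their type.

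Hnrnpd (chr5:99955935-99978938, - strand), known as AUF1 and as a binder of AU-rich elements in unstable messages, was at least 2-fold higher than in NR in all 3 responding types. Its normalized counts were 74.8, 365 and 3294 in S-type and 0, 245 and 4568 in T-type. The M-type cells had 531, 267, 758, 1571 and 1048, and the NR cells 246, 413, 324, 49.04 and 162.2. The M-type cells were the most even, with 4 of 5 above every NR cell, whereas 3 T-type cells lay below every NR cell. The log2 ratio of M-type versus NR was 1.81 (1.45 to 2.10 over cells left out in turn). In S-type versus NR it was 1.79 (0.49 without S-type cell 1), and in T-type versus NR it was 2.37 from the means (1.26 without T-type cell 5), -0.00317 from the medians and -1.03 from the mean log2 values.

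Hnrnpul1 (chr7:25721165-25754757, - strand), an RNA-binding protein with a part in transcription and the DNA damage response, was read in every NR cell and in no T-type cell. It had 0 reads in all 6 T-type cells, and normalized counts of 0, 2.90 and 30.7 as lowest, median and highest value in S-type. Counts were 0, 0.7002, 0, 0 and 0.864 in the M-type cells and 4.25, 44.8, 13.7, 26.3 and 101 in the NR cells. Each NR cell exceeded every T-type and M-type cell, while the S-type range overlapped that of NR. Taken at the level that 3 reads over the T-type cells would give, T-type lay 61.1-fold below NR and 15.5-fold below S-type. These values are not lower bounds. On the log2 scale the first was -5.93 (upper end of the counting interval -5.47, and -5.16 without NR cell 5). The second was -3.95 (upper end of the counting interval -3.72, and -3.12 without S-type cell 4). The log2 ratio was -1.98 in S-type versus NR (counting interval -2.37 to -1.61, and -2.81 without S-type cell 4 and -1.21 without NR cell 5). It was -6.93 in M-type versus NR, with 3 reads in M-type and a counting interval of -9.21 to -5.36. The gene had 338 reads in all, of which 258 were in NR.

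Hnrnph3 and Hnrnpa1 were the other genes at least 2-fold lower in all 3 responding types than in NR. Hnrnph3, a small relative of the G-run binders Hnrnph1 and Hnrnpf, had 0.888, 362 and 695 normalized counts in S-type and 0, 117 and 695 in T-type. M-type cells 1 to 5 gave 50.7, 86.8, 418, 396 and 440.2, and NR cells 1 to 5 gave 2584, 689.7, 758, 117 and 1.85. The highest value was that of NR cell 1 and the ranges overlapped, and the log2 ratio versus NR was -1.26 for S-type (-0.997 without S-type cell 1 and -0.18 without NR cell 1), -1.58 for M-type (-0.49 without NR cell 1) and -1.93 for T-type (-2.77 without T-type cell 5 and -0.85 without NR cell 1). Hnrnpa1 had 1 read among the S-type cells, 3 among the T-type cells, 8 among the M-type cells and 45 in 1 NR cell. Its log2 ratio versus NR was -4.34 in T-type (counting interval -6.67 to -2.70, and -2.81 without T-type cell 6) and -5.63 in S-type (counting interval -10.96 to -3.08, and -3.74 without S-type cell 5), and in M-type it was -3.13 (-4.56 without M-type cell 5 and 0.60 without NR cell 3). Without NR cell 3 the gene has no ratio of T-type or S-type versus NR, since at most 3 reads remain in each type. Of all genes 9.68% were at least 2-fold lower in all 3 responding types and 6.997% at least 2-fold higher, and these counts share the NR cells.

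Hnrnpu, also called SAF-A, ties RNA to the nuclear scaffold and had 1 high cell. It had 3693, 5881 and 6272 normalized counts in S-type and 6158, 7724 and 31052 in T-type. Among the M-type cells the values were 6889, 4733, 4172, 4246 and 5284, and among the NR cells 10035, 4271, 4872, 2929 and 10050.0. Only T-type cell 1 exceeded the highest NR value, and the log2 ratio of T-type versus S-type was 1.03 (0.41 without T-type cell 1 and 0.93 without S-type cell 5). Among the other hnRNPs the ratio of T-type versus S-type was 0.70 for Hnrnpc, which binds uridine tracts, 0.89 for Hnrnpk, which binds cytosine-rich RNA, 0.68 for Hnrnpl, which binds CA repeats, and 0.58 for Hnrnpa0.

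**Figure D4:**
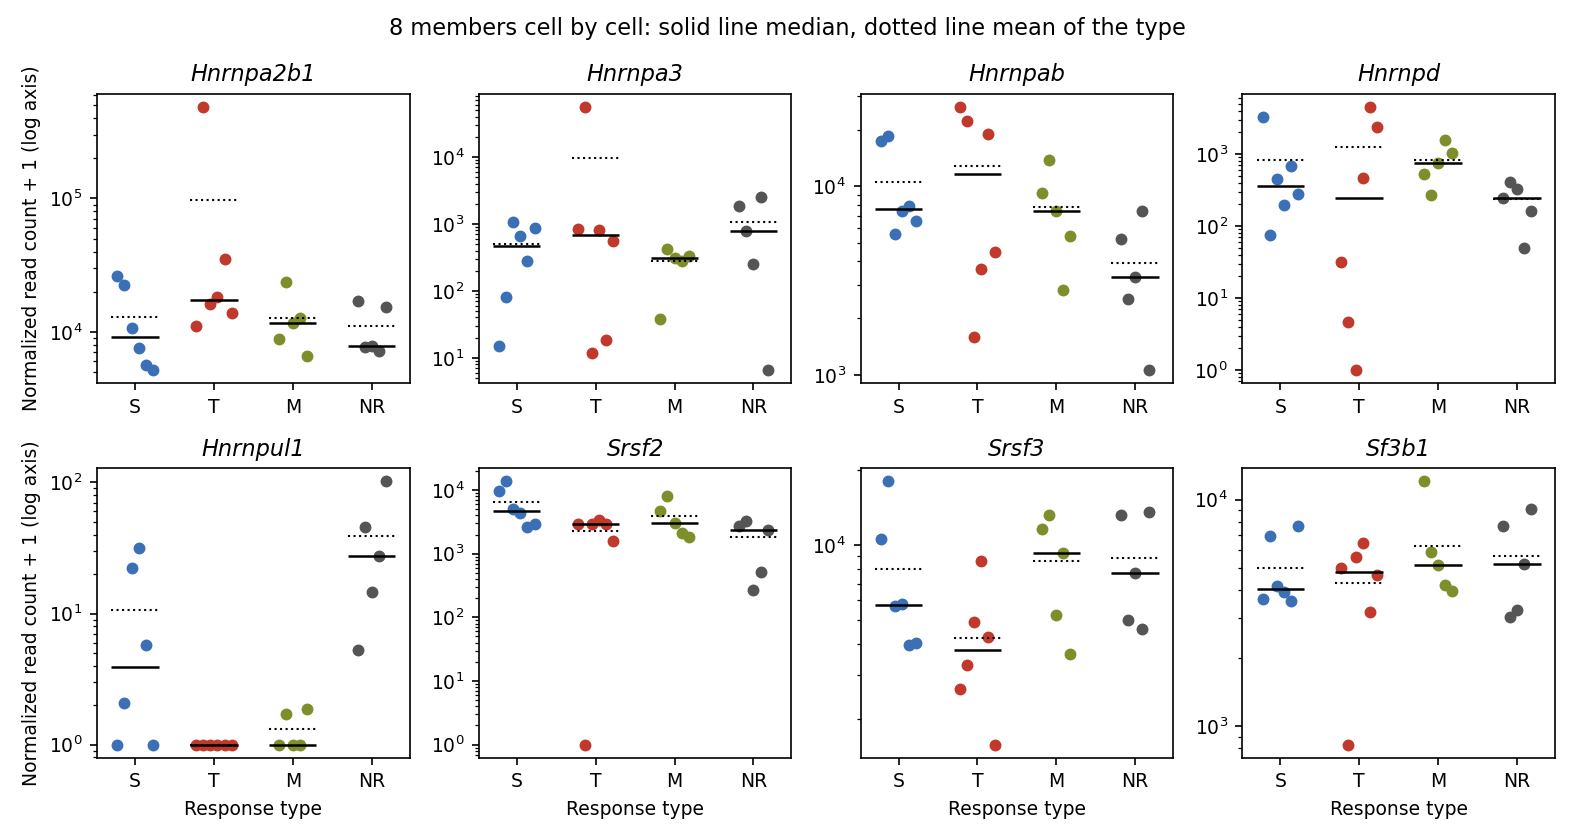
Normalized read count + 1 (log axis) of 8 genes in each cell by response type, with a solid line at the median and a dotted line at the mean of the type. In Hnrnpa2b1 and Hnrnpa3 the dotted T-type line is drawn away from the solid one by T-type cell 2, at 488149 and 56187 normalized counts. In Hnrnpul1 all 6 T-type cells lie at 0.

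The Sm core binds the RNA of the snRNPs as a ring of 7 proteins, and here 7 of the 8 genes were read in every cell. Snrpe (Sm E) had 474, 1491 and 3570.4 normalized counts in S-type and 879, 2184 and 5063 in T-type. The M-type cells had 1224, 4189, 1525, 909 and 2348, and the NR cells 1548, 1256, 2093, 1791 and 3996. The ranges overlapped, and the log2 ratio of T-type versus NR was 0.37. Snrpd1 (Sm D1) had medians of 1354, 2327, 1132 and 1332 normalized counts in the order S-type, T-type, M-type, NR, with a highest value of 7109.6 in T-type cell 1. Its ratio of T-type versus NR was 1.26 (0.83 without T-type cell 1, 0.87 without T-type cell 5 and 0.96 without NR cell 3). Snrpd2 (Sm D2) lay between 10.9 and 2194 normalized counts over the 22 cells, and no ratio between its type levels passed 2-fold.

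Snrpg (Sm G) was, with Hnrnpd, the other gene at least 2-fold higher than NR in all 3 responding types. It had 364, 679.5 and 2301 normalized counts in S-type and 163.6, 597 and 2052 in T-type. Counts were 1158, 1666, 511, 188 and 362 in the M-type cells and 256, 448, 288, 631 and 157 in the NR cells. The 4 ranges overlapped, and the highest values of S-type were in cells 1 and 2 and that of T-type in cell 5, the 3 cells with the highest cell cycle shares. The log2 ratio was 1.56 for S-type versus NR (1.17 to 1.87 over cells left out in turn), 1.13 for M-type versus NR (0.94 without M-type cell 1, 0.64 without M-type cell 2 and 0.94 without NR cell 5) and 1.03 for T-type versus NR (0.37 without T-type cell 5, 0.93 without NR cell 1, 0.96 without NR cell 3 and 0.84 without NR cell 5). Snrpd3 (Sm D3) had 2283, 1230.3, 454, 99.6 and 454 normalized counts in the M-type cells and 23.1, 324, 698, 289 and 239 in the NR cells, and its ratio was 1.52 (0.83 without M-type cell 1) for M-type and 1.39 for T-type (0.91 without T-type cell 5).

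Of the 4 proteins particular to U1 and U2, 3 had a higher level in T-type than in S-type, and 3 a higher level in T-type than in NR. Snrpb2, the B'' protein of U2 that binds a stem loop of U2 RNA together with Snrpa1, had 277, 844 and 3327 normalized counts in S-type and 830.5, 3635 and 4477 in T-type. M-type cells 1 to 5 gave 795, 832, 1067, 140.1 and 577, and NR cells 1 to 5 gave 399, 686, 345, 1973 and 448. T-type cells 2 to 6 exceeded every M-type and NR cell, and T-type cell 1 fell among them. The log2 ratio of T-type versus NR was 2.05 (2.76 without NR cell 4), and that of T-type versus S-type was 1.301 (1.09 to 1.85 over cells left out in turn). From the medians over cells they were 3.02 and 2.11.

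Snrpa1, its A' partner, was also higher in T-type than in S-type. It had 194, 468 and 840.0 normalized counts in S-type and 162.3, 1249 and 7991 in T-type. Among the M-type cells the values were 1857, 262, 830.3, 651 and 362, and among the NR cells 337, 808, 5.75, 3167 and 3647. The S-type cells were the most even and the ranges overlapped, with T-type cell 3, the shallowest library, highest. The log2 ratio of T-type versus S-type was 2.32 (1.38 without T-type cell 3), and that of M-type versus NR was -1.01 from the means (-1.60 without M-type cell 1, -0.78 without M-type cell 2, -0.94 without M-type cell 4, -0.82 without M-type cell 5, -0.60 without NR cell 4 and -0.45 without NR cell 5) and 0.43 from the mean log2 values.

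Snrpc, the C protein of U1 that helps U1 to hold the start of the intron, had 27.5, 91.3 and 639.5 normalized counts in S-type and 0, 169 and 489.6 in T-type. The M-type cells had 38.8, 31.5, 38.9, 43.6 and 55.7, and the NR cells 5.46, 39.1, 62.6, 109 and 7.42. M-type was narrow and low, and single S-type and T-type cells lay about an order of magnitude above it. The log2 ratio was 2.34 in T-type versus NR (2.98 without NR cell 4) and 2.23 in S-type versus NR (1.48 without S-type cell 2 and 2.88 without NR cell 4). Snrpa, the A protein of U1, had 64 to 98 reads per type and a log2 ratio of -0.05 in T-type versus NR.

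SF3a and SF3b, the parts of the U2 snRNP at the branch point, had no common direction. Sf3b1, the large subunit that closes around the branch-point adenosine, had 3553, 4047 and 7641 normalized counts in S-type and 830.5, 4811 and 6426 in T-type. Counts were 12037, 5887, 5142, 4195 and 3943 in the M-type cells and 7639, 3023, 3253, 5210.5 and 9097 in the NR cells. The types overlapped almost wholly, and Sf3b1 was after Srsf11 the least variable gene of the family (SD over mean 0.460). Its log2 ratio of T-type versus NR was -0.40. Sf3b2 was at 1.47 in the same comparison (0.94 without T-type cell 3), and Sf3a3 at 1.23 in T-type versus S-type (0.63 without T-type cell 2 and -0.25 from the mean log2 values).

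Sf3b4, which binds the intron upstream of the branch point, was lower in M-type than in NR. The M-type cells had 14.4, 55.3, 76.9, 61.7 and 75.2 normalized counts, and the NR cells 116, 134, 84.9, 100.5 and 163.2. No M-type cell reached the lowest NR cell, although the gap was only from 76.9 to 84.9. As a share of reads the ranges overlapped, with 0.000786% in M-type cell 5 and 0.000784% in NR cell 3. The separation thus holds in normalized counts only. The log2 ratio was -1.08 (-0.83 without M-type cell 1 and -0.94 without NR cell 5), so it dropped below 2-fold in part of them. The S-type cells had 32.7, 207 and 533 and the T-type cells 0, 32.2 and 394, with 0 reads in T-type cells 2 and 3, and the ratio of T-type versus S-type was -1.48 (-3.46 without T-type cell 1). Sf3b5, the smallest SF3b subunit, had a log2 ratio of -1.94 in S-type versus NR (-1.06 without NR cell 5), from levels of 241 and 922 normalized counts. Sf3a2 had only 14 to 42 reads per type.

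U2AF, which reads the end of the intron, was the group with the smallest summed share of reads, from only 3 genes. U2af1, the small subunit that contacts the AG, had medians of 279, 212, 223 and 324 normalized counts in the order S-type, T-type, M-type, NR. Its log2 ratio of T-type versus NR was -0.72, and no ratio between its type levels passed 2-fold. U2af1l4, a short relative of U2af1 known as U2AF26, had 32.5, 113 and 1519 normalized counts in S-type and 0, 179 and 1126 in T-type. M-type cells 1 to 5 gave 25.02, 22.4, 97.0, 51.4 and 33.7, and NR cells 1 to 5 gave 9.71, 89.1, 42.4, 8.97 and 7.42. Both upper ranges were set by few cells, namely S-type cell 1 and T-type cells 2, 4 and 5, and all types overlapped. The log2 ratio was 3.39 in S-type versus NR (1.57 without S-type cell 1 and 4.27 without NR cell 2) and 3.35 in T-type versus NR (2.36 without T-type cell 4 and 4.23 without NR cell 2). U2af2, the large subunit on the pyrimidine tract, had a ratio of 1.46 in T-type versus NR (0.83 without T-type cell 4).

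The order of the 4 types was not shared across the family. Among the 49 genes whose mean level reached 10 normalized counts, T-type had the highest level for 26, where it did for 32.8% of all genes. NR was highest for 10 (26.2% of all genes), S-type for 9 (24.0%) and M-type for 4 (17.1%). M-type was lowest for 16 genes (26.0% of all genes), NR for 14 (22.6%), T-type for 10 (31.7%) and S-type for 9 (19.7%). The cells of neighbouring types mostly overlapped, and in the 4 comparisons made complete separation of normalized counts was seen in the 3 instances given above. That of Sf3b4 did not hold by share of reads.

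The family was more even from cell to cell than the median gene. Where the mean level reached 100 normalized counts, the SD over the mean across the 22 cells had a median of 0.917 for the family and 1.297 for all genes. It was 0.766 for the SR proteins and 0.974 for the hnRNPs. The same measure was 0.720 for cytosolic ribosomal proteins, 1.07 for translation initiation factors and 1.21 for other splicing genes. Srsf11, Sf3b1 and Srsf3 (0.600) were the least variable, and Hnrnpa3 (3.83), Hnrnpa2b1 (2.86) and Srsf12 (2.85) the most. A single cell held over 50% of a type's summed level for 8, 14, 5 and 15 of the 49 genes in the order S-type, T-type, M-type, NR, and for 41.6%, 67.5%, 46.9% and 54.5% of all genes. The median level of the genes at 10 or more was 1250.3 normalized counts in the family and 296 over all genes, and the part of abundance in this spread was not tested.

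**Figure D5:**
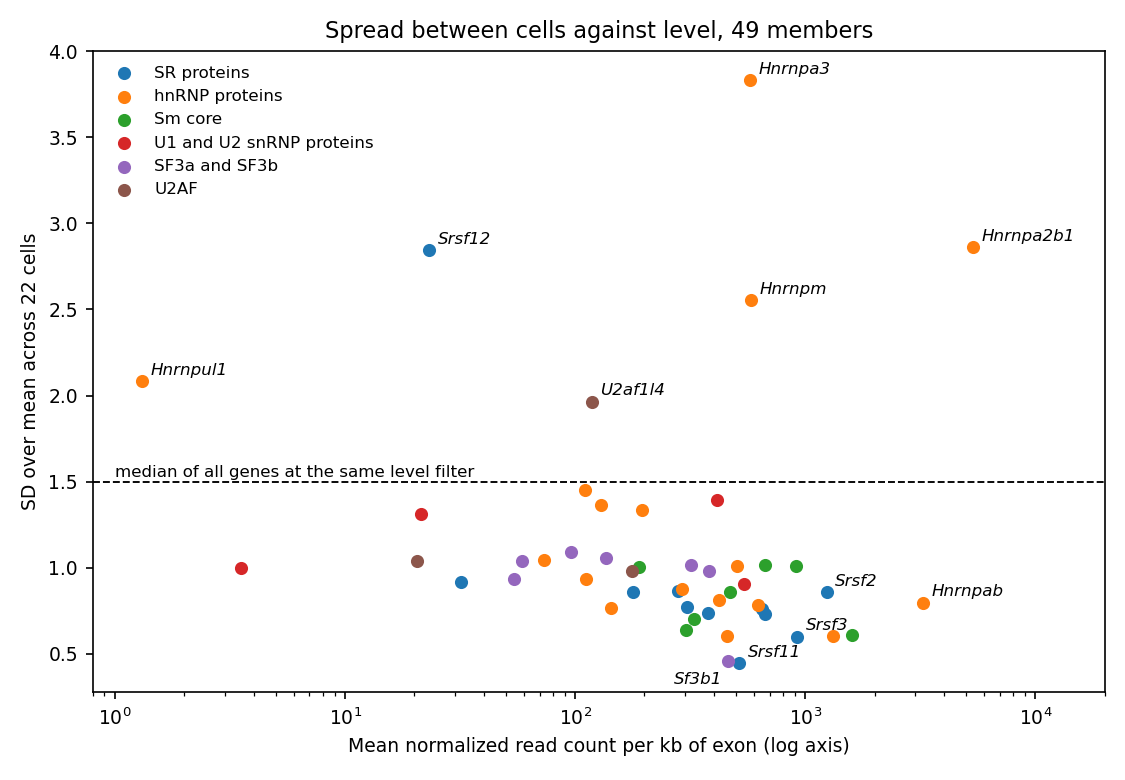
SD over mean across the 22 cells against the mean normalized read count per kb of exon (log axis) for the 49 genes whose mean level reached 10, coloured by group, with a dashed line at the median of all genes at that level. Most genes lie below the dashed line at 1.498, and Hnrnpa3 (3.83), Hnrnpa2b1 (2.86) and Srsf12 (2.85) lie far above it.

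Other genes of the splicing pathway, taken from lists by symbol, lay nearer to the median of all genes than the family did in both comparisons of T-type. Of the 137 in the table, 31 of 127 compared were at least 2-fold higher and 28 at least 2-fold lower in T-type versus S-type (25.7% and 32.5% of all genes), and 41 and 29 of 128 in T-type versus NR (28.4% and 32.8% of all genes). Their median log2 ratio was 0.19 and 0.30 in these comparisons, 0.02 in S-type versus NR and -0.01 in M-type versus NR. The proteins of U5 and the tri-snRNP had a median of -0.26 in T-type versus NR. The Lsm genes, which form the ring of U6 and include a few relatives outside it, had 1.51 (7 of 12 at least 2-fold higher and 2 lower). The exon junction complex with SR-related proteins was at 0.00, the regulators of alternative splicing at 0.72 and the snRNP assembly factors at 0.62. With mean log2 values the assembly factors turned to -1.23 and the exon junction list to -0.64, the Lsm genes fell to 0.08, and the regulators were at 0.29. Genes among those with the most reads in these lists had log2 ratios of T-type versus NR of -0.35 (Prpf6) for the tri-snRNP, 1.72 (Lsm6) and -0.65 (Lsm14a) for the Lsm genes, -1.14 (Son) and 0.22 (Rbm39) for the SR-related proteins, 0.90 (Qk) and 1.37 (Celf2) for the regulators, and 2.08 (Strap) and 0.15 (Phax) for assembly. Relatives that the name rule passed over, looked up after the values were seen, were at 1.14 (Snrnp70), -1.42 (Hnrpdl) and 0.62 (Hnrpll) in the same comparison.

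The kinases that phosphorylate SR proteins had a lower median level in T-type than in NR. Their median log2 ratio was -1.17 in T-type, with 3 of 7 positive, 0 at least 2-fold higher and 4 lower (28.4% and 32.8% of all genes), -0.78 in S-type and -0.89 in M-type. Clk1, the kinase that releases SR proteins from speckles, had 152.8, 719 and 2734 normalized counts as lowest, median and highest value in S-type, 12.7, 319 and 7014 in T-type, and 557, 1881 and 7725 over the 5 NR cells, so the ranges overlapped. Its ratio of T-type versus NR was -1.17. For scale, the cytosolic ribosomal proteins had a median of 1.13 in T-type versus S-type and 1.26 in T-type versus NR, where 49 of 77 were at least 2-fold higher and 0 lower. The translation initiation factors were at 0.66 and 0.27, and turned to -0.35 and -0.14 with mean log2 values. The family's medians of 0.51 and 0.67 lay between those of the ribosomal proteins and of all genes in both comparisons.

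The sequences just upstream of the start are shown for 5 genes whose levels the comparisons above turned on and whose first 100 upstream bases carry no annotated exon. Capitals mark matches, on either strand, to the TATA box (letters TATAAA), the box spelled CCAAT, the GC box (letters GGGCGG), the core site of ETS factors (letters CCGGAAG) or the core of the cAMP response element (letters TGACG). Each run ends at the base before a RefSeq start and is read on the gene's strand, here the - strand of GRCm38.p6 in all 5. Hnrnpa2b1 had 2 RefSeq starts, of which only 1 is shown.
Hnrnpa2b1 (chr6:51469895-51469994): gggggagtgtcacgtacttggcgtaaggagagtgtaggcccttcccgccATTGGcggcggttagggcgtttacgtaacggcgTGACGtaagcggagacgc
Hnrnpab (chr11:51606882-51606981): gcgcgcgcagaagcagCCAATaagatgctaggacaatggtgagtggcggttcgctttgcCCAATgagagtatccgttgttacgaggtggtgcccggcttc
Hnrnpd (chr5:99978939-99979038): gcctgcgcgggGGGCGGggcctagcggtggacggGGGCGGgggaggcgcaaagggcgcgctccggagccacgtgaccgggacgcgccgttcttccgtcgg
Srsf2 (chr11:116853095-116853194): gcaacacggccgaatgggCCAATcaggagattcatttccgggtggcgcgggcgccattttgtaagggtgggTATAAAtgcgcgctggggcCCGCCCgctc
Hnrnpul1 (chr7:25754760-25754859): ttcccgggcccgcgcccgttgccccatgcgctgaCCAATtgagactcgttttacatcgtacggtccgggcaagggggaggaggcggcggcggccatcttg
In these stretches the CCAAT box stood upstream of Hnrnpab, Srsf2 and Hnrnpul1 and, read on the other strand, of Hnrnpa2b1. The GC box stood upstream of Hnrnpd and, on the other strand, of Srsf2, whereas the TATA box was seen in Srsf2 and TGACG in Hnrnpa2b1.

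Over the 250 upstream bases the family's promoters were rich in GC boxes. RefSeq gave 64 start sites for 46 of the 52 genes, and 42 of these windows (65.6%) held GGGCGG, against 32.7% of the 32851 windows of all genes. CCGGAAG was in 18 (28.1%, all genes 6.91%), TGACG in 25 (39.1%, all genes 17.8%) and CCAAT in 29 (45.3%, all genes 33.8%). TATAAA was in 6 (9.38%, all genes 12.4%). Windows of 1 gene can overlap, a match shows letters only, and no binding was measured here.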

How the data were processed

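The study measured RNA in 22 single cultured astrocytes. The authors copied each cell's RNA into antisense RNA in 2 rounds of amplification, made stranded TruSeq libraries, sequenced them as paired reads, trimmed them, aligned them with STAR to GRCm38 and counted uniquely aligned exonic reads with VERSE. They deposited raw counts per gene symbol, with no molecular identifiers, so a count is one of amplified reads. GEO's processing notes name STAR and HTSeq. Versions, the annotation release and the strand setting are not given in the sources used here. The authors tested genes with DESeq2 with cells as replicates. That test was not used here because no animal or culture is named for a cell.

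From the counts, median-of-ratios size factors (3670 genes read in all cells), type levels and log2 ratios were computed (Python 3.11.15, NumPy 2.4.6, pandas 2.3.3, matplotlib 3.10.9). A type without reads was set to 3 reads over its summed size factors, and no ratio was given where both types had at most 3. Only genes read in at least 5 cells were compared. Intervals are exact at 95% (SciPy 1.17.1) and cover the counting error of amplified reads only, not the sampling of RNA molecules before amplification. Depth was 2937786 to 22131076 reads per cell. The counting interval of the log2 ratio was within 0.1 on either side for 42 of 50 genes in T-type versus S-type and for 41 of 51 in the other comparisons.

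Positions, exon lengths and shared 75-base stretches came from GENCODE vM21 (GRCm38), and upstream sequences from RefSeq (GRCm38.p6). Annotated transcripts only were searched. The members, the lists and the alternatives were chosen with earlier results of these data known. Genes named were, for each comparison and direction, the 3 furthest past 2-fold whose mean level reached 10, those whose cells did not overlap, the 3 with the most reads per group, the 3 detected in the fewest cells, and the 3 most and 3 least variable. Of other splicing lists the 2 genes with the most reads were named, except 1 that is not reported here. Srsf4, Srsf6, Snrpa, Sf3a2, Hnrnph2, Hnrnpc, Hnrnpk, Hnrnpl and Hnrnpa0 were named after their values were seen. Alternatives were TMM factors (edgeR 4.0.16, R 4.3.3), mean and pooled CPM, medians over cells, mean log2(normalized count + 1), a pseudocount of 1, other filters, thinning to 2937786 reads, and leaving out cells. Leaving out T-type cells 2 and 3, or S-type cells 1 and 2, together was added after the data were seen. The steps were tested on simulated data.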

Additional observations from a re-analysis of the deposited data

Results flagged for a closer look

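Dixon's test at the 95% level was applied within each type to 36 sets of cell values, and chance alone flags about 1 in 20 of them. It picked out the share of reads on SF3a and SF3b in 2 cells. In M-type cell 1 this share was 0.167% of the reads, and the nearest M-type cell had 0.0934%. In NR cell 3 it was 0.0453%, and the nearest NR cell had 0.0869%.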

How the results depend on the processing

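No paired analysis was possible because the labels give no replicate numbers that link cells of different types. Of the values that summarise a comparison, 105 under other settings and 147 with 1 cell left out stayed within the limits set, and 29 and 7 did not. In T-type versus S-type the family's median log2 ratio was 0.084 with mean CPM, 0.078 with pooled CPM, -0.27 with the mean of log2(normalized count + 1) and 0.85 without S-type cells 1 and 2. The genes at least 2-fold higher then numbered 5, 7, 7 and 21, with 8 from medians over cells and 7 after thinning, and those at least 2-fold lower 7 with mean CPM, 7 from medians, 13 with mean log2 values and 2 at a level of at least 100. In T-type versus NR the median was 0.18 with mean CPM (9 genes higher), 0.29 with pooled CPM and 0.27 with mean log2 values (13 lower), and 3 were lower at a level of at least 100. The other splicing genes had medians of -0.89 and -0.61 with mean log2 values in these comparisons. In S-type versus NR 5 genes were lower from medians and 5 with mean log2 values, and the median was -0.18 without S-type cells 1 and 2. In M-type versus NR 5 were lower with mean CPM, 5 with pooled CPM and 3 from medians, and 8 were higher with mean log2 values. Without T-type cells 2 and 3 together the median was 0.35 versus S-type and 0.50 versus NR. The cause of these shifts was not tested.

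With single cells left out, the medians ran from 0.29 to 0.62 (T-type versus S-type), 0.44 to 0.76 (T-type versus NR), -0.08 to 0.18 (S-type versus NR) and -0.17 to 0.04 (M-type versus NR). Genes higher ran from 10 to 20, 14 to 22, 8 to 12 and 3 to 8, and genes lower from 4 to 9, 5 to 8, 7 to 10 and 6 to 10. The cells that moved a count by over 1.5 times were S-type cell 1 (20 higher), T-type cells 4, 5 and 6 (9, 8 and 7 lower) in T-type versus S-type, and M-type cell 1, NR cell 1 and NR cell 3 (3, 8 and 3 higher) in M-type versus NR.

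Among the genes named by rule, single genes turned direction as follows. In T-type versus S-type these were Hnrnpa3 (-0.14 without T-type cell 2 to 4.68 without S-type cell 3), Sf3a3 (-0.25) and Sf3b5 (-0.33) with mean log2 values, and Srsf12 (0.072 from medians, from -5.03 without T-type cell 3 to 1.82 without S-type cell 1, 1.5001 without S-type cells 1 and 2). Of the other genes past 2-fold, Hnrnph2 (1.05) turned to -0.43 without T-type cell 1, -0.64 from medians and -1.57 with mean log2 values, and Sf3a2 (1.37) to -1.18 from medians. In T-type versus NR the named genes were Hnrnpa1 (0.65 from medians), Hnrnpa3 (-0.20 from medians, from -1.27 without T-type cell 2 to 3.76 without NR cell 4, -0.95 without T-type cells 2 and 3) and Hnrnpd (-0.00317 from medians, -1.03 with mean log2 values). From medians Hnrnpa1 was at 0.019 in S-type versus NR and at 0.24 in M-type versus NR, where it ran from -4.56 without M-type cell 5 to 0.60 without NR cell 3, and Snrpa1 was at 0.43 with mean log2 values. The counting interval was within 0.1 on either side for 42 of 50 genes in T-type versus S-type, and these did not include the 5 genes with fewer than 1000 reads.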
